A study of Mus musculus with 22 samples.

Results

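The step from the colon stem cell to the absorptive progenitor (AbsPro) was read in 6 of the 22 sequenced libraries, which were chosen by their labels as Stem 1 to 3 and AbsPro 1 to 3. All genes of the count tables were used, 24421 in each library. The tables of skipped exons and of polyadenylation site use made for this pair of cell types were read beside them. The other 16 libraries hold SecPDG (secretory progenitors, deep crypt secretory cells and goblet cells), tuft cells, enterocytes and enteroendocrine cells (EECs), and they entered the gene test to share its filter, scaling and estimate of the spread between libraries.

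All mice were untreated wild-type males of the C57BL/6N strain, aged 5 to 7 weeks, and by the study's methods each Stem and each AbsPro library came from 1 mouse. Crypt cells were freed from the colon with EDTA and mechanical force, without protease, and sorted as live Epcam+ cells without Cd31 (endothelium) or Cd45 (blood cells). Both populations were cKit- and Cd24 low. They were told apart by the surface level of Cd44, an adhesion receptor and Wnt target, which was highest in the stem gate and medium to high in the AbsPro gate. The AbsPro gate therefore rests on the level of a protein and uses no marker of the absorptive lineage. The comparison asks which genes differ as a stem cell leaves the base of the crypt.

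Stem cells at the base of the colon crypt divide under Wnt signals, which act through beta-catenin and Tcf factors, and under Notch signals, which repress Atoh1 and so hold back the secretory fate. Daughter cells divide further in the transit-amplifying zone while they commit to an absorptive or a secretory lineage. Absorptive cells become colonocytes, which take up salt, water and short-chain fatty acids, and secretory cells become goblet cells, deep crypt secretory cells, EECs or tuft cells.

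Reads counted on genes came to 19900282 to 22462518 in Stem and 16614350 to 22157285 in AbsPro, and genes with at least 1 read numbered from 13145 in AbsPro 2 to 18419 in AbsPro 3. Rank correlations across genes were 0.964 to 0.983 among Stem, 0.955 to 0.985 among AbsPro and 0.931 to 0.960 between the groups, with AbsPro 2 the library that stood farthest from its own group. Of the cells the gate was to remove, 15 immune genes summed to 251 to 318 normalized counts in Stem and 229 to 363 in AbsPro, and 5 endothelial genes to 13.8 to 19.8 and 29.3 to 82.5. None of these 20 genes was called. Pecam1, which codes for Cd31, was at 0, 0 and 2.70 in Stem and 46.6, 0 and 44.1 in AbsPro. Its adjusted p was 0.141 in edgeR's quasi-likelihood test and 0.00189 in DESeq2's Wald test. The 10 stromal genes summed to 134 to 338 in Stem and to 552, 235 and 1541 in AbsPro 1, 2 and 3, and Vim, an intermediate filament gene of mesenchymal cells, was called higher in AbsPro. In AbsPro 3 the sum held Col3a1, a fibrillar collagen gene, at 635 normalized counts against 4.24 and 4.88 in the other two AbsPro libraries. The part of these cells in the results below was not tested.

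A total of 134 genes differed, 113 higher and 21 lower in AbsPro. Of the 22781 genes tested, 0.496% were called higher and 0.0922% lower, where a call needed a Benjamini-Hochberg adjusted p under 0.01 in edgeR's quasi-likelihood test and, averaged over the 22 libraries, 50 or more normalized counts. Called genes were far apart. The smallest change among them was 1.44 on the log2 scale, the median of the higher genes was 2.51 and that of the lower genes -2.03, beside a median of 0.00 for all genes tested. All 21 lower genes and 106 of the 113 higher genes had no overlap between the Stem and AbsPro libraries, a pattern found upward in 8.78% and downward in 6.74% of all genes tested. Shares over all genes tested include genes of low counts. An average of 50 or more normalized counts was reached by 13188 genes, of which 53.2% lay above 0, beside 49.4% of all genes tested. The shares without overlap were not taken for these genes alone, though they make up most members of the lists below. An unadjusted p under 0.05 was found for 2075 genes. A fit of the 6 libraries alone takes its filter on low counts, its scaling and its spread from those libraries. It called 307 genes higher and 148 lower, 2.22% and 1.07% of its 13829 genes, and included 124 of the 134. Without Stem 1, Stem 2, Stem 3 or AbsPro 3 the higher count was 47, 71, 48 or 63, and without Stem 1, Stem 3, AbsPro 1 or AbsPro 3 the lower count was 6, 10, 7 or 5. The genes called with each of the 6 libraries left out in turn numbered 34.

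**Figure D1:**
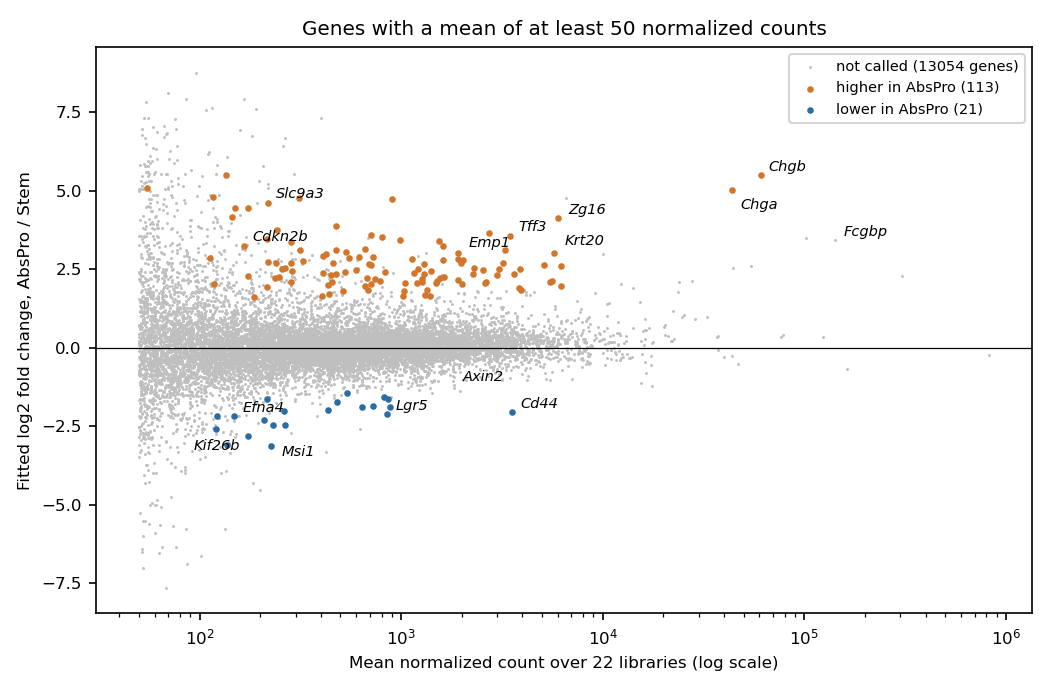
Each point is 1 of 13188 genes whose average over the 22 libraries, on the x axis (log scale), is 50 normalized counts or more, with the fitted log2 fold change of AbsPro over Stem on the y axis. Orange points are the 113 genes called higher, blue points the 21 called lower, and grey points, genes not called, spread most at low counts.

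Among the genes of the sort itself, Cd44 was measured at 9577, 9502 and 10724 normalized counts in Stem 1, 2 and 3 and at 2421, 2994 and 1856 in AbsPro 1, 2 and 3. The groups were far apart (log2 fold change -2.03 ± 0.35 SE, adjusted p = 0.000188), in the direction by which the cells were gated, so that this value is a check of the sort and not a finding. Epcam, the epithelial surface marker of both gates, stood at 24945 ± 2990 (SD, n = 3) in Stem and 30404 ± 4132 in AbsPro. Cd24a and Kit, which code for the other gated antigens, were not called either (log2 fold changes -0.29 and 1.02, adjusted p = 0.993 and 0.364).

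Genes of the crypt base were mostly below 0. Of 26 stem cell and Wnt target genes, Lgr5 and Msi1 were called lower beside Cd44, whose place in all counts of this list was set by the gate, and none was called higher. Since the cells were gated by the level of a Wnt target, the part of the gate in the other members was not tested. The median of the list was -1.08 on the log2 scale against 0.00 for all genes tested. Of the 26, 22 were below 0, beside 41.5% of all genes tested. In 20 the Stem and AbsPro libraries did not overlap downward, beside 6.74% of all genes tested. Lgr5 (chr10:115450314-115587780, mm10), the R-spondin receptor that marks crypt stem cells, was read at 2594, 2006 and 3197 normalized counts in Stem and at 368, 890 and 566 in AbsPro. Every Stem library lay above every AbsPro library, and the mean was 4.27-fold higher in Stem (log2 fold change -2.10 ± 0.34 SE, adjusted p = 9.15e-05). Msi1, which codes for the RNA-binding protein Musashi, showed the largest decrease of all called genes, from 226, 139 and 220 to 19.1, 20.3 and 29.1 normalized counts (log2 fold change -3.11 ± 0.61, adjusted p = 0.00146). In a population of sorted cells, fewer cells that express a gene and less RNA of it per cell cannot be told apart.

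Other genes of the list were not called. Axin2, a feedback inhibitor of Wnt signaling, was at 4656 ± 595 normalized counts in Stem and 2047 ± 663 in AbsPro (SD, n = 3), and Smoc2, a matricellular gene of stem cells, at 2514 ± 589 and 1102 ± 65.1. Both pairs of groups were apart in every library, yet the adjusted p was 0.0497 for Axin2 and 0.066 for Smoc2, above the threshold of 0.01. The same held for Rnf43, the ubiquitin ligase that removes Wnt receptors (log2 fold change -1.04, adjusted p = 0.0809), and for Cdca7 (-0.93, adjusted p = 0.199). In the fit of the 6 libraries alone 16 of the 26 genes, Cd44 included, were called lower and none higher. That fit called 1.07% of its genes lower. They were Lgr5, Smoc2, Axin2, Rnf43, Cd44, Sox9, Cdca7, Rgmb, Lrig1, Cdk6, Ephb3, Slc12a2, Msi1, Tcf7, Zbtb38 and Uaca. DESeq2's Wald test on all 22 libraries called 8 of the 26 lower and 0 higher, where it called 96 of its 24421 genes lower. Its adjusted p was 1.13e-06 for Rnf43 and 0.00108 for Axin2, but 0.148 for Smoc2 and 0.127 for Cdca7. The calls in this list thus depended on the test and on which libraries were fitted. The edgeR fits of all and of 6 libraries differ in their filter on low counts, scaling and estimate of the spread. The part of each was not tested.

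**Figure D2:**
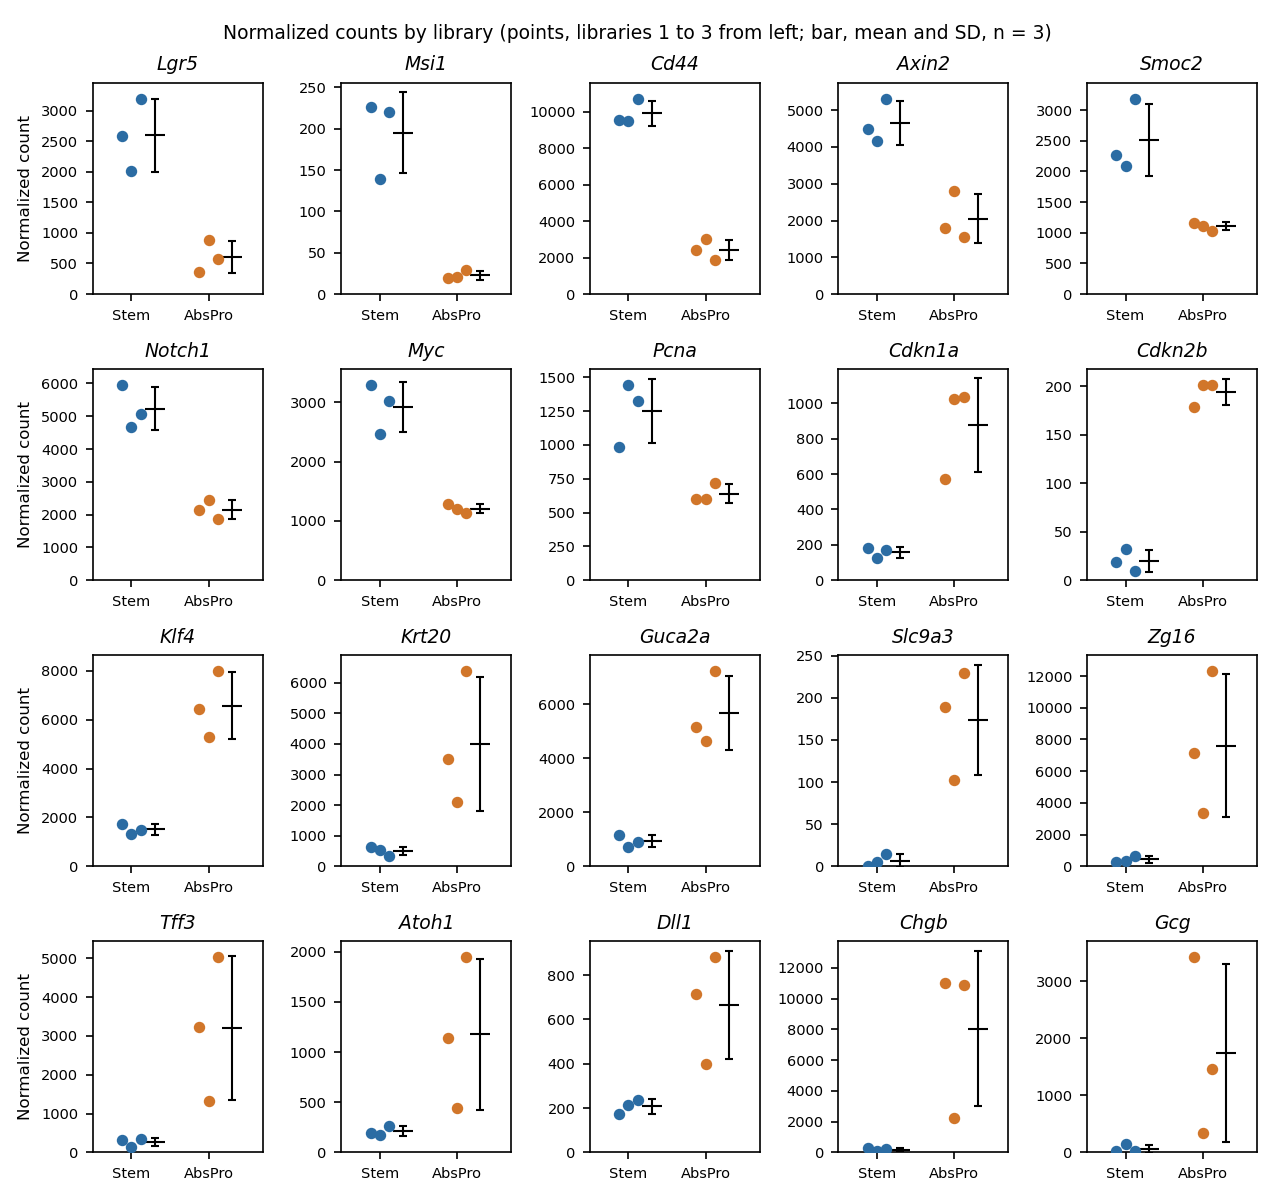
Normalized counts (y axis, from 0) of 20 genes in Stem (blue) and AbsPro (orange), with a point for each of libraries 1 to 3 from left to right and a bar for the mean and SD (n = 3). The Stem and AbsPro libraries do not overlap in any of these genes, and AbsPro 2 is the lowest AbsPro library for Zg16, Tff3, Atoh1, Dll1, Chgb and Gcg.

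Genes of the core Wnt pathway gave no call. Among 24 receptors, mediators and repressors the median was 0.01 on the log2 scale, and 12 genes lay above 0 and 12 below. Ctnnb1, which codes for beta-catenin, was at 10027 ± 470 normalized counts in Stem and 10259 ± 304 in AbsPro, with overlapping libraries. The corepressor Aes was at 4753 ± 364 and 6521 ± 1416 and was not called (adjusted p = 0.86).

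The other large decreases were spread over genes of several kinds, none of them in the stem cell list except Lgr5 and Msi1. Kif26b, a kinesin family gene, went from 546, 344 and 301 normalized counts to 67.1, 53.7 and 46.9 (log2 fold change -2.80 ± 0.51, adjusted p = 0.000583). Scn2b, a beta subunit of voltage-gated sodium channels, was at 826, 523 and 908 in Stem and at 79.1, 246 and 82.5 in AbsPro (log2 fold change -2.47 ± 0.42, adjusted p = 0.000188). In both genes the lowest Stem library was above the highest AbsPro library. The remaining genes among the 10 largest decreases were Rbms3, an RNA-binding protein gene (-3.09), Amph, which codes for the endocytic protein amphiphysin (-2.57), the secreted protein gene Ccdc3 (-2.45), the semaphorin Sema7a (-2.29), the nuclear receptor Nr2e3 (-2.18) and the ephrin ligand Efna4 (-2.16). Their adjusted p ran from 0.00236 for Efna4 to 0.00859 for Nr2e3.

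Smaller decreases, named here after their values were seen, included the RNA-binding gene Mex3a (log2 fold change -2.01), the semaphorin receptor Plxnb1 (-1.84), the Rac activator Tiam1 (-1.58), the replication fork gene Timeless (-1.72) and the formin-domain gene Fhdc1 (-1.89). Fhdc1 was at 1030, 877 and 1118 normalized counts in Stem and 247, 216 and 361 in AbsPro (adjusted p = 0.000482).

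Notch genes split between the receptor and the secretory branch. Notch1 was at 5961, 4676 and 5054 normalized counts in Stem and at 2148, 2435 and 1872 in AbsPro, apart in every library. Its log2 fold change of -1.28 ± 0.34 missed the threshold (adjusted p = 0.0351) and passed it in the fit of the 6 libraries alone (adjusted p = 0.000276). Notch1 was also called lower by DESeq2's Wald test on all 22 libraries (adjusted p = 0.00148). Its target Hes1, a repressor of Atoh1, was at 1388 ± 70.0 and 1013 ± 125 (adjusted p = 0.837). Of the 24 Notch receptors, ligands and targets, 2 were called, both higher. Atoh1, the factor that commits cells to the secretory lineage, rose from 194, 174 and 265 to 1144, 440 and 1946 normalized counts (log2 fold change 2.47 ± 0.49, adjusted p = 0.00154), and Dll1, a Notch ligand of secretory progenitors, from 209 ± 33.7 to 665 ± 245 (1.66 ± 0.38, adjusted p = 0.00896).

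Growth genes leaned downward without single calls. Myc, a Wnt target and the factor that drives ribosome production, was at 3298, 2462 and 3020 normalized counts in Stem and 1289, 1208 and 1133 in AbsPro. The libraries did not overlap, and the log2 fold change of -1.27 ± 0.36 had an adjusted p of 0.0554, against 0.000217 in the fit of the 6 libraries alone. Of the 13 Myc and Max network genes none was called and the median was -0.43. In the 6-library fit Mxd1, a Max partner that opposes Myc, was called higher, at 415 ± 63.6 in Stem and 1264 ± 460 in AbsPro (log2 fold change 1.60, adjusted p = 0.0215 in the fit of all libraries). None of 38 nucleolar ribosome biogenesis genes was called, though 36 were below 0, beside 41.5% of all genes tested, with a median of -0.42. Their most abundant member, Ncl, which codes for nucleolin, was at 34449 ± 6678 in Stem and 19959 ± 4238 in AbsPro.

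Genes of the cell cycle were mostly below 0 without calls. All 40 DNA replication genes had a log2 fold change below 0, beside 41.5% of all genes tested. Their median was -0.94 and their range -1.39 to -0.19. In 30 of them the libraries did not overlap downward, beside 6.74% of all genes tested, low-count genes included. All 40 averaged 50 or more normalized counts. None was called, and the 6-library fit called 9, all lower, beside 1.07% of its genes called lower. Pcna, the sliding clamp of the replication fork, was at 986, 1444 and 1321 normalized counts in Stem and at 601, 597 and 721 in AbsPro (log2 fold change -0.97 ± 0.33, adjusted p = 0.168). Mcm6, a subunit of the replicative helicase, was at 4817 ± 706 and 2357 ± 535. Of 32 mitosis genes 31 were below 0, with a median of -0.43 and no call. In 10 of them the libraries did not overlap downward, beside 6.74% of all genes tested. Top2a, the topoisomerase that untangles sister chromatids, was at 7324 ± 2091 in Stem and 3618 ± 889 in AbsPro, and Nusap1, a spindle gene named here after its values were seen, at 1393 ± 75.6 and 619 ± 290. Both were called lower in the 6-library fit (adjusted p = 0.00297 and 0.00334). Mki67, the proliferation marker, was at 18355, 22299 and 26133 in Stem and at 20116, 12001 and 22627 in AbsPro, with overlapping libraries (-0.29, adjusted p = 0.992).

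Cell cycle inhibitors carried the calls in the group of 20 G1 cyclins, kinases, inhibitors and Trp53. Cdkn2b, which codes for the Cdk4 and Cdk6 inhibitor p15, rose from 18.4, 32.0 and 9.43 normalized counts to 179, 202 and 202 (log2 fold change 3.25 ± 0.58, adjusted p = 0.000416). Cdkn1a, which codes for p21, rose from 181, 123 and 172 to 570, 1022 and 1038 (2.47 ± 0.46, adjusted p = 0.000888). Both were several-fold above every Stem library in all 3 AbsPro libraries, including AbsPro 2. Cdk4 itself was at 2640 ± 90.3 in Stem and 1394 ± 89.1 in AbsPro, and Trp53 at 2100 ± 249 and 1045 ± 307, neither called (adjusted p = 0.191 and 0.111). DESeq2's Wald test on all 22 libraries called both lower (adjusted p = 0.0013 and 0.00148). The 6-library fit called Cdk4 (0.00195) but not Trp53 (0.0106).

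The 29 chromatin and nuclear lamina genes had a median of -0.56 and no call, with 25 below 0, beside 41.5% of all genes tested. Lmnb1, a lamin gene high in proliferating cells, was at 6652 ± 117 normalized counts in Stem and 4104 ± 347 in AbsPro (log2 fold change -0.70, adjusted p = 0.536). The H3K36 methyltransferase gene Whsc1 was at 3539 ± 653 and 2275 ± 136 (adjusted p = 0.58). The 6-library fit called 7 genes of the list lower, among them Lmnb1 (adjusted p = 0.00926) but not Whsc1 (0.0253). Of all its genes, 1.07% were called lower. DESeq2's Wald test on all 22 libraries called 7 of the list lower, where it called 96 of its 24421 genes lower. Both Lmnb1 (adjusted p = 0.00411) and Whsc1 (0.00127) were among these 7.

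**Figure D3:**
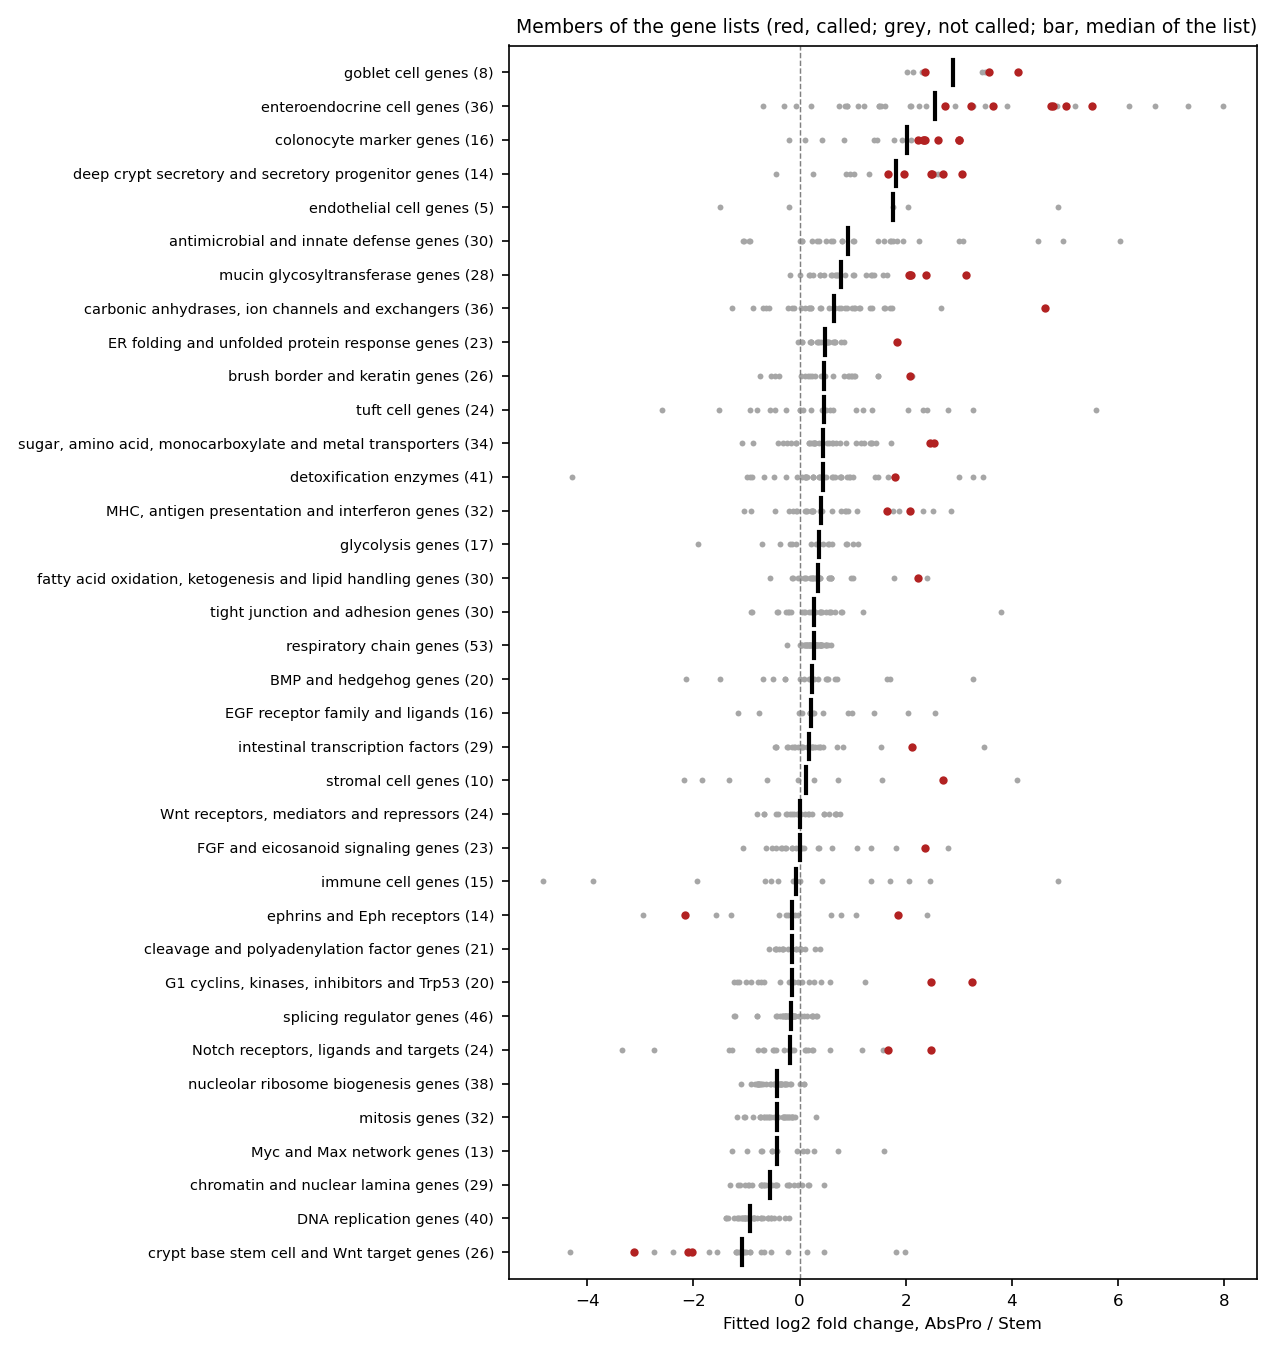
Fitted log2 fold changes of AbsPro over Stem (x axis) for the members of the gene lists (y axis, with the number tested), with a grey point per gene, red points for called genes and a black bar for the median of each list. Replication genes lie wholly left of 0, respiratory chain genes almost wholly right of it, and called genes gather among colonocyte, goblet, secretory progenitor and enteroendocrine genes.

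Colonocyte genes were higher in AbsPro. Of 16 markers 7 were called, all higher, beside 0.496% of all genes tested. The median of the list was 2.02 on the log2 scale. Krt20, a keratin of mature colonocytes, was at 618, 528 and 342 normalized counts in Stem and at 3522, 2087 and 6391 in AbsPro, above every Stem library in each (log2 fold change 3.01 ± 0.50, adjusted p = 0.000129). Emp1, an epithelial membrane protein gene, went from 369, 654 and 520 to 3226, 2863 and 6370 (3.00 ± 0.45, adjusted p = 3.64e-05). Guca2a, which codes for guanylin, a peptide that promotes chloride secretion, was 6.09-fold higher in AbsPro, and the sugar phosphate transporter Slc37a2 was 5.12-fold higher. Guca2a is not particular to colonocytes in this series, with medians of 12724 normalized counts in SecPDG, 6443 in tuft cells and 4319 in enterocytes. The other called markers were Dpep1 (2.36), a dipeptidase that also acts on leukotrienes, Cyp2c55 (2.32) and Slc26a3 (2.24), the chloride and bicarbonate exchanger. Krt20, Emp1 and Slc37a2 had higher medians in EECs (30143, 4405 and 6196 normalized counts) than in enterocytes (9704, 3749 and 5114). EEC medians are those of only 2 libraries. These were at 615 and 8196 for Emp1 and at 555 and 11837 for Slc37a2. They lay on both sides of the enterocyte libraries, at 2636 to 5217 and 1825 to 7674. Guca2a and Dpep1 had lower medians in EECs (2448 and 291) than in enterocytes (4319 and 1126). The most abundant marker, Car1, the carbonic anhydrase of colonocytes, was at 15775 ± 5369 in Stem and 67469 ± 15459 in AbsPro and was called only in the 6-library fit (adjusted p = 2.14e-05 there and 0.0802 in the fit of all libraries).

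Among 29 intestinal transcription factors 1 was called. Klf4, which opposes proliferation in the upper crypt, was at 1736, 1317 and 1480 normalized counts in Stem and at 6458, 5277 and 8003 in AbsPro (log2 fold change 2.12 ± 0.44, adjusted p = 0.00261). Klf5, a factor of the proliferating crypt, was at 15797 ± 595 and 17723 ± 131, and Hnf4a, a factor of the absorptive lineage, at 11840 ± 709 and 14075 ± 391. Neither was called, and their log2 fold changes were 0.17 and 0.25.

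Genes of transport rose in part. Slc9a3, the apical sodium and proton exchanger of salt uptake, was the only called member of 36 carbonic anhydrases, ion channels and exchangers, with 0, 5.12 and 14.8 normalized counts in Stem and 189, 102 and 230 in AbsPro (log2 fold change 4.62 ± 0.78, adjusted p = 0.000141). Of 34 nutrient and metal transporters 2 were called, Slc6a14, an amino acid transporter (from 581, 451 and 406 to 3416, 1849 and 2995, adjusted p = 0.000212), and Trf, which codes for the iron carrier transferrin (from 170, 172 and 254 to 1353, 635 and 1261, adjusted p = 0.00012). Both were above every Stem library in all AbsPro libraries, and both stayed called with each of the 6 libraries left out. The medians of these lists were 0.65 and 0.44.

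Brush border, metabolic and junction genes lay mostly above 0 with few calls. Of 26 brush border and keratin genes tested, Anpep, a brush border peptidase, was called (from 211 ± 44.7 to 898 ± 425 normalized counts, adjusted p = 0.0016). The 6-library fit called 9, all higher, beside 2.22% of its genes called higher. The median of Anpep was 3926 in SecPDG and 865 in enterocytes. The keratins Krt8 and Krt19, filaments of simple epithelia, were at 24715 ± 2338 and 27024 ± 2544 in Stem and at 47102 ± 5674 and 53062 ± 7205 in AbsPro, without overlap and without a call (adjusted p = 0.702 and 0.675). Of 53 respiratory chain genes 52 were above 0, beside 49.4% of all genes tested, but the median was 0.27 and none was called in either fit. Mgll, which cleaves monoglycerides, was the single called gene of 30 in fatty acid and lipid handling (2.24 ± 0.46, adjusted p = 0.00275), and Cyp4f14, an oxidase of fatty acids and eicosanoids, that of 41 detoxification enzymes (1.80 ± 0.39, adjusted p = 0.0048). No gene was called among 17 of glycolysis or 30 of tight junctions and adhesion, with medians of 0.37 and 0.28.

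Some of the largest increases lay outside the lists. Tmprss13, a membrane serine protease, was at 11.5, 0.64 and 8.09 normalized counts in Stem and at 265, 87.0 and 192 in AbsPro (log2 fold change 4.80 ± 0.82, adjusted p = 0.000188). Mal, a membrane raft protein of apical sorting, was at 29.8, 87.1 and 22.2 and at 493, 671 and 950 (3.88 ± 0.60, adjusted p = 4.52e-05). The libraries were apart in both. The genes 5033404E19Rik (5.07), Vwa5b2 (4.44) and AI854703 (4.16) completed the largest increases, with at most 15.5 normalized counts in any Stem library.

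Secretory genes were also higher in the AbsPro gate. Of 8 goblet cell genes all were above 0 without overlap, beside 8.78% of all genes tested. Of the 8, 3 were called, beside 0.496% of all genes tested called higher, and the median was 2.90, the highest of all lists. Zg16, a lectin of mucus granules, was at 273, 359 and 672 normalized counts in Stem and at 7157, 3348 and 12327 in AbsPro (log2 fold change 4.12 ± 0.53, adjusted p = 3.97e-06). Tff3, the trefoil peptide of goblet cells, was at 315, 146 and 347 and at 3238, 1330 and 5031 (3.58 ± 0.53, adjusted p = 3.5e-05), and Spdef, a goblet cell transcription factor, was called as well (2.36 ± 0.46, adjusted p = 0.00138). In all 3 genes AbsPro 3 was highest and AbsPro 2 lowest of the AbsPro libraries. Zg16 is not particular to secretory cells in this series, with medians of 15932 normalized counts in enterocytes and 5689 in SecPDG. The medians in enterocytes and SecPDG were 4841 and 7191 for Tff3 and 334 and 6162 for Spdef.

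The goblet gene with the most reads, Fcgbp, which codes for a protein of the mucus gel, was at 9551, 5732 and 6900 normalized counts in Stem and 85333, 39048 and 115152 in AbsPro. Its mean was 10.8-fold higher in AbsPro, yet its adjusted p was 0.0508 in the fit of all libraries and 2.44e-06 in that of the 6. DESeq2's Wald test on all 22 libraries called Fcgbp higher (adjusted p = 9.82e-06). The whole goblet list summed to 19418 to 32563 in Stem and to 84344 to 254227 in AbsPro. Of 14 deep crypt secretory and secretory progenitor genes 6 were called, all higher, beside 0.496% of all genes tested. The median of the list was 1.82. The called genes were Lrrc26, a potassium channel subunit (3.06), Bcas1 (2.70), Hepacam2 (2.5), Atoh1, Hsd11b2, which inactivates glucocorticoids (1.97), and Dll1.

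Genes for mucin glycans followed, with 5 of 28 glycosyltransferases called, all higher, beside 0.496% of all genes tested. Their median was 0.78. The largest change was that of B3gnt7, which extends glycan chains (from 746, 289 and 253 to 5415, 1701 and 4000 normalized counts, log2 fold change 3.13 ± 0.58, adjusted p = 0.000628). The others were the sialyltransferases St3gal4 (2.39), St6galnac6 (2.10) and St6gal1 (2.08) and the galactosyltransferase B3galt5 (2.06). Of 23 genes of protein folding and the unfolded protein response, 22 lay above 0, beside 49.4% of all genes tested, with a median of 0.48. The stress gene Ndrg1 alone was called (1.83 ± 0.42, adjusted p = 0.00871).

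Enteroendocrine genes showed the largest changes. Of 36 genes 7 were called, all higher, beside 0.496% of all genes tested, and the median was 2.56. Chgb, which codes for a granin of hormone granules (chr2:132781642-132795079, mm10), was at 282, 67.2 and 190 normalized counts in Stem and at 11044, 2259 and 10869 in AbsPro, the largest increase of all called genes (log2 fold change 5.51 ± 1.01, adjusted p = 0.000583). Chga, the other granin, was at 135, 62.1 and 8.76 and at 2979, 744 and 2830 (5.03 ± 1.03, adjusted p = 0.00249). In both genes AbsPro 2 was far below the other two AbsPro libraries but above every Stem library.

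Hormone genes varied more. Gcg, the proglucagon gene, went from 32.9, 140 and 18.9 normalized counts to 3421, 334 and 1467 (log2 fold change 4.73 ± 0.74, adjusted p = 6.5e-05), and Sct, the secretin gene, from 113 ± 71.5 to 1096 ± 704. Pyy was higher as well (2.75 ± 0.57, adjusted p = 0.00275). Nts, the neurotensin gene, was called with a large change (4.78) that rests on AbsPro 1, since it was at 440, 0 and 51.6 normalized counts in AbsPro and at 0, 16.6 and 0.674 in Stem, and the groups overlapped. Ptprn2, a phosphatase-like protein of dense-core granules, was called with a smaller spread, at 76.5, 50.6 and 88.3 in Stem and 892, 498 and 1300 in AbsPro (3.64 ± 0.51, adjusted p = 1.86e-05). The list was not uniform in the 2 EEC libraries of the series, where the medians were 615552 for Chgb and 462109 for Chga but 1.21 for Gcg and 60.6 for Pyy. In enterocytes Gcg and Pyy had medians of 2534 and 586. All EEC genes together summed to 1429 to 1743 in Stem and to 23864, 6113 and 22107 in AbsPro 1, 2 and 3. The part of EECs in the AbsPro gate was not tested. Tuft cell genes summed to 711 to 1098 in Stem and 606 to 876 in AbsPro, with no call among 24.

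AbsPro 2 had the lowest value of the AbsPro libraries in 90 of the 113 higher genes, where it was the lowest in 59.4% of all genes with a mean of at least 50, and AbsPro 3 had the highest value in 78. AbsPro 2 was also the library with the fewest genes detected. Without it the higher and lower counts were 147 and 17. The label of the AbsPro libraries names the absorptive lineage, while their calls included 3 of 8 goblet, 6 of 14 secretory progenitor and 7 of 36 EEC genes beside 7 of 16 colonocyte markers. Of all genes tested, 0.496% were called higher.

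Single calls differed in how far they rested on 1 library. Cd44, Lgr5, Krt20, Emp1, Guca2a, Slc9a3, Slc6a14, Trf, Fhdc1, Zg16, Tff3, Bcas1, Lrrc26, Gcg, Sct, Ptprn2, Tmprss13 and Mal were called with each of the 6 libraries left out. Cdkn1a lost its call without Stem 2 (adjusted p = 0.0113 in edgeR), Cdkn2b without Stem 3 (0.0108) and Chgb without Stem 1 (0.0122), each just past the threshold of 0.01. Of the 6 fits, 5 called Slc26a3, Dpep1 and AI854703 too, 4 called Kif26b, Scn2b, Plxnb1, Efnb2, Anpep, Mgll, Hepacam2 and Vim, and 3 called Mex3a, Timeless, Atoh1, Klf4, Spdef, Pyy, Nts, B3gnt7, St3gal4, St6gal1 and St6galnac6. Only 2 called Rbms3, Sema7a, Irf7, Cyp4f14, Ndrg1, Cyp2c55 and Vwa5b2, 1 called Msi1, Amph, Nr2e3, Efna4, Chga, Dll1, Hsd11b2, B3galt5, Slc37a2, Usp18 and 5033404E19Rik, and 0 called Ccdc3 and Tiam1. Msi1 was called only without Stem 2, with adjusted p from 0.0102 to 0.0213 in the others, and Chga only without AbsPro 2, with 0.0102 to 0.0354. All their log2 fold changes kept their sign. DESeq2's Wald test, which made more calls in all, did not call Dpep1, Cyp2c55, Mal, Tiam1, B3gnt7, Atoh1, Rbms3, Slc37a2, Gcg, Scn2b, Nts, Efna4, Pyy and Nr2e3, with adjusted p from 0.0103 for Dpep1 and 0.0356 for Gcg to 0.126 for Nr2e3. Of these, Rbms3, Pyy and Nts were not called in the 6-library fit either (adjusted p = 0.0106, 0.0127 and 0.0247).

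Signaling genes outside Wnt and Notch gave single calls. Of 14 ephrins and Eph receptors, Efnb2, a ligand of the EphB receptors of the crypt, was higher in AbsPro (from 376, 540 and 392 to 1534, 1278 and 1922 normalized counts, log2 fold change 1.85 ± 0.37, adjusted p = 0.00189), and Efna4 was lower, as given above. The opposite moves of these ephrin genes had no overlap between libraries in either gene. No gene was called among 16 of the EGF receptor family and its ligands, with a median of 0.22, or among 20 of BMP and hedgehog signaling, with a median of 0.24. Erbb3 and Smad4, a receptor and a shared mediator of these pathways, were at 5978 ± 531 and 2844 ± 163 in Stem and 5939 ± 270 and 2838 ± 315 in AbsPro. Of 23 FGF and eicosanoid genes Dpep1 alone was called. Fgfbp1, a carrier of FGF ligands, was at 670 ± 92.8 and 1423 ± 197 (1.09, adjusted p = 0.245), and Kitl, the ligand of cKit, at 2032 ± 408 and 2040 ± 404. Itih5, a hyaluronan-associated protein gene, was at 746, 695 and 772 in Stem and at 3099, 1043 and 3296 in AbsPro (1.75, adjusted p = 0.0135). It was called higher by DESeq2's Wald test (adjusted p = 0.000613) and by the 6-library fit (0.000904). All 3 AbsPro libraries were above Stem, though AbsPro 2 only slightly.

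Defense genes rose in 2 cases of 32 among those of MHC, antigen presentation and interferon. Irf7, a regulator of interferon genes, went from 320, 401 and 453 normalized counts to 888, 1069 and 1752 (log2 fold change 1.65 ± 0.37, adjusted p = 0.00741), and Usp18, which restrains interferon signaling, from 67.8 ± 27.1 to 295 ± 67.5 (2.09 ± 0.44, adjusted p = 0.00392). The median of that list was 0.40. None of 30 antimicrobial and innate defense genes was called. Pigr, the receptor that carries IgA across the epithelium, was at 80199 ± 3463 in Stem and 100832 ± 10976 in AbsPro.

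RNA processing factors gave no call. None of 46 splicing regulators and none of 21 cleavage and polyadenylation factors was called in either fit, and the medians were -0.16 and -0.14. Hnrnpa2b1 and Hnrnpu, abundant RNA-binding proteins of spliced transcripts, had log2 fold changes of -0.19 and -0.31, and the poly(A)-binding protein gene Pabpc1 was at 24707 ± 911 and 18140 ± 1101 (adjusted p = 0.937).

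Skipped exons were read from counts of inclusion and skipping reads, scaled by the length of each form to an inclusion level between 0 (always skipped) and 1 (always included). Of 4872 events 2502 were tested, those with at least 10 reads in every library and reads of both forms over the 6 libraries. Of these, 0 (0%) passed an adjusted p of 0.05 in edgeR's quasi-likelihood test. The lowest adjusted p was 0.249, 167 events (6.67%) had an unadjusted p under 0.05, and a quasi-binomial model called 0 as well. The exons of Ctnnd1, Spen and Itga6 were taken up because the study names them for this step, and their coding sequences are printed here 5′ to 3′ on the transcribed strand with the alternative exon in capitals and up to 20 bases of the neighboring exons in lower case. The coordinates are those of GRCm38 (mm10).
Ctnnd1 exon 18 of 20, chr2:84605184-84605246, minus strand: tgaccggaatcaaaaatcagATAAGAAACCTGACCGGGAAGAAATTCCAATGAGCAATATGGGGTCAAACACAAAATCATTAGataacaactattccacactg
Spen exon 9 of 15, chr4:141485559-141485672, minus strand: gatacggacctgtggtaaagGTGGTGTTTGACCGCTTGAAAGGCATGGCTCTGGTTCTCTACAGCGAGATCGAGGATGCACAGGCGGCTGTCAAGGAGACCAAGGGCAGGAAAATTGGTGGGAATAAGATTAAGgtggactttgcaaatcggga
Itga6 exon 25 of 26, chr2:71853534-71853663, plus strand, coding part: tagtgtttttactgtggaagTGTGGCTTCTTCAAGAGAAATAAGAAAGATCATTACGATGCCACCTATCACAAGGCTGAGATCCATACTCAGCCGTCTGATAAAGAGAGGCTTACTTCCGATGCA
The exons of Ctnnd1 (63 bases) and Spen (114 bases) lie wholly in the coding sequence and are multiples of 3 in length, so that skipping keeps the reading frame. The Itga6 exon (130 bases) is no multiple of 3, and its first 105 bases are coding in the transcript that includes it.

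Ctnnd1 codes for delta-catenin (p120), which binds cadherins at adherens junctions. Inclusion of its 63-base exon was 0.954, 0.786 and 0.837 in Stem and 0.531, 0.179 and 0.490 in AbsPro, on 57 to 245 reads per library. The libraries did not overlap, and the mean was 0.859 ± 0.0863 in Stem and 0.400 ± 0.192 in AbsPro (SD, n = 3). The log2 odds ratio of -3.09 ± 0.95 had an unadjusted p of 0.00112 and an adjusted p of 0.479 in edgeR, which is no call. The level of the gene's 289-base exon was 0.400 ± 0.107 and 0.430 ± 0.0340, with overlapping libraries.

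Spen codes for an RNA-binding repressor that acts with Notch effectors. Its 114-base exon was included in all reads of the 3 AbsPro libraries and at 0.145, 0.976 and 0.570 in Stem, on 51 to 90 reads per library. Stem 2 was close to the AbsPro libraries while Stem 1 mostly skipped the exon, and the difference was not called (adjusted p = 0.479 in edgeR). Inclusion in the Itga6 exon, which changes the cytoplasmic tail of integrin alpha 6, was 0.632, 0.430 and 0.433 in Stem and 0.365, 0.416 and 0.385 in AbsPro. All Stem libraries were above all AbsPro libraries, but Stem 2 and 3 by little (adjusted p = 0.804 in edgeR). The exons of Cbfa2t2 and Kitl in the table and the 69-base exon of Spen had under 10 reads in at least 1 library and were not tested, and none of the Eif4a2 exons was called.

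**Figure D4:**
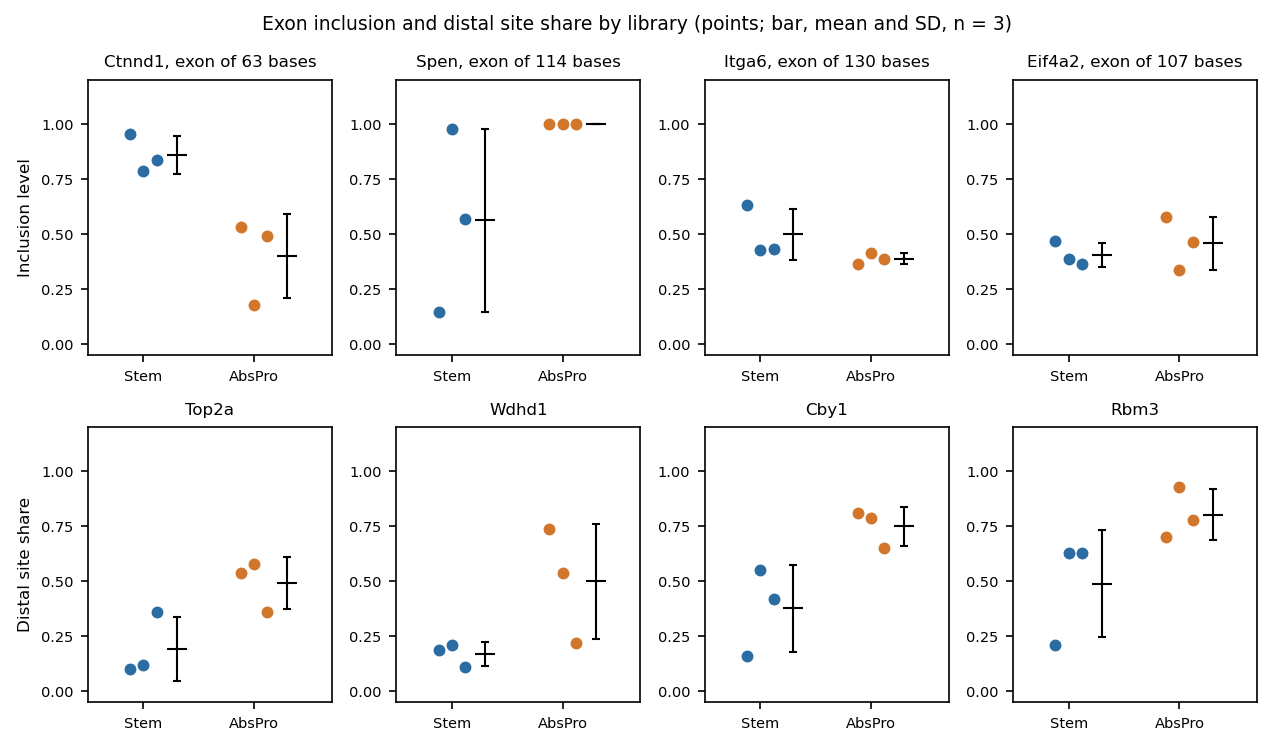
Inclusion level of exons of Ctnnd1 (63 bases), Spen (114 bases), Itga6 (130 bases) and Eif4a2 (107 bases) and share of the distal polyadenylation site of Top2a, Wdhd1, Cby1 and Rbm3 (y axes) in Stem (blue) and AbsPro (orange), with a point per library and a bar for the mean and SD (n = 3). Libraries do not overlap except for Eif4a2 and Top2a, and none of the 8 differences passed the adjusted threshold.

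Use of the distal polyadenylation site, which gives the longer transcript end, was deposited as a share for each transcript. Of 5137 transcripts 4484 had a share in all 6 libraries, and 0 of them (0%) were called at an adjusted p of 0.05 by limma, with a lowest adjusted p of 0.11 and 179 (3.99%) at an unadjusted p under 0.05. The median share over transcripts was 0.363 in Stem and 0.370 in AbsPro, while the median SD among libraries of a group was 0.0961 and 0.0929. Without Stem 1 limma called 6 transcripts, and without Stem 3 it called 2. Shares of Cby1, which codes for a beta-catenin antagonist, were 0.16, 0.55 and 0.42 in Stem and 0.81, 0.79 and 0.65 in AbsPro. For the replication gene Wdhd1 they were 0.19, 0.21 and 0.11 and 0.74, 0.54 and 0.22. The distal share was higher in every AbsPro library for both genes, by little in AbsPro 3 for Wdhd1, with an adjusted p of 0.915 for each in limma.

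For Top2a, the topoisomerase of dividing cells, the distal share was 0.10, 0.12 and 0.36 in Stem and 0.54, 0.58 and 0.36 in AbsPro, so that Stem 3 and AbsPro 3 were equal. Rbm3, a cold-inducible RNA-binding protein gene, was at 0.490 ± 0.242 and 0.803 ± 0.117. The hedgehog ligand gene Ihh was at 0.407 ± 0.0350 and 0.493 ± 0.156 in 1 transcript and at 0.0730 ± 0.0640 and 0.220 ± 0.0460 in another, and none of these was called (adjusted p from 0.915 to 0.923 in limma).

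The called genes were placed among all 6 cell types. Reads outside genes made up 64.9% to 89.9% in EEC and 67.2% to 83.3% in enterocyte libraries, against 45.6% to 49.9% in Stem and AbsPro, and the part of this difference in the ranks was not tested. Of the 113, the highest group median was that of enterocytes in 38, of SecPDG in 36, of EECs in 19, of AbsPro in 15 and of tuft cells in 5, and in 69 of them Stem had the lowest median of the 6 cell types. Among all genes with a mean of at least 50, the highest median was that of enterocytes in 7.45%, SecPDG in 20.1%, EECs in 25.2%, AbsPro in 18.3% and tuft cells in 5.98%. Of the 21 lower genes, Stem had the highest median in 13, beside 23.0% of all such genes, EECs in 7 and tuft cells in 1. Since Stem and AbsPro values chose these genes, the counts describe them and were not tested. The EEC medians rest on only 2 libraries.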

How the data were processed

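RNA of sorted mouse colon crypt cells was measured in 22 libraries, of which 3 Stem and 3 AbsPro are described, grouped by their deposited labels. The authors aligned paired reads to mm10 with STAR 2.5.2a and counted them with HTSeq 0.6.1p1 without regard to strand, so that overlapping and antisense genes cannot be told apart. The deposited values are raw counts per gene. Entries that name no gene (reads outside genes, ambiguous or not unique) made up 56.2% to 58.6% of the entries of the 6 libraries and stayed out of library sizes and tests. The authors made the table of skipped exons with rMATS, which holds read counts of both forms, and the polyadenylation table with DaPars, which holds a fraction rounded to 2 decimals. In both, libraries have a place and no name, and the places were read as replicate numbers. The depth behind the fraction is unknown. Columns of the authors' own comparisons (p-values, FDR, differences of means) and the MAJIQ table, which holds expected changes, their probabilities and group means, were not used.

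The gene test was run in R 4.3.3 by edgeR 4.0.16 (filterByExpr, TMM, glmQLFit and glmQLFTest) in 1 fit of the 22 libraries with cell type as the term. Normalized counts are counts scaled by the TMM library sizes, log2 fold changes are fitted values of AbsPro over Stem, and errors after ± are SEs beside a log2 value and SDs beside a level. Events were tested with edgeR on paired inclusion and skipping counts with the dispersion set to 0.01, since the dispersion estimated over all events recovered no change in simulated data. For distal shares, limma 3.58.1 was run on the log2 ratio of the share to its remainder, 0.01 added to each. All p-values are two-sided and set the difference between groups against an estimated spread between libraries. All tests were checked on simulated data. Named genes are the 10 largest increases and decreases without overlap, up to 5 called members of each list (the 2 most abundant where fewer than 2 were called), the sorting markers and genes the study names for this step. Genes outside this rule are named in counts or were chosen after their values were seen, and 1 gene that the rule names is not reported here. Members and lists were chosen with earlier results of these data known. Alternatives were DESeq2 1.42.0, other scalings, filters, thresholds and fits, thinned counts, a replicate block, each library left out and, chosen after seeing the data, other dispersions. Figures were drawn with matplotlib 3.10.9. Exon sequences come from the GRCm38 genome.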

Additional observations from a re-analysis of the deposited data

How the results depend on the processing

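The gene counts depended on the method of the fit, on which libraries entered it and on single libraries. Against 113 higher and 21 lower genes, DESeq2's Wald test called 324 and 96, edgeR with DESeq2's size factors 184 and 45, the 6 libraries alone 307 and 148, the 6 libraries thinned to equal total counts 286 and 145, and an adjusted p under 0.05 gave 211 and 61. Library totals in place of TMM gave 161 and 52, and dispersions from estimateDisp, chosen after seeing the data, 78 and 5. With each library left out in turn, the higher count ran from 47 (without Stem 1) to 147 (without AbsPro 2) and the lower count from 5 (without AbsPro 3) to 19 (without Stem 2). The cause of these shifts was not tested, beyond the fewer libraries left. Replicate numbers are not stated to mark shared mice, and the correlations of same-numbered Stem and AbsPro deviations were -0.017, 0.1397 and 0.1414 across 13188 genes, so that they were not taken as pairs. A replicate block raised the counts to 428 and 271 in the 6 libraries and to 172 and 37 in the fit of 22. A replicate block by place called 0 events and 0 transcripts. A dispersion of 0 for events, also chosen after seeing the data, called 1 event. Leaving out a library called 0 events each time and 0 to 6 transcripts. Of the 54 called genes that follow the naming rule, none changed sign under any alternative, 11 lost the call in DESeq2's Wald test, 33 lost it with estimateDisp, and 16 stayed called with each of the 6 libraries left out. Of the 2277 values of named genes under all alternatives, 1995 kept their direction and side of the threshold, 188 lost the call, 94 gained it and 0 reversed a call, while 10 uncalled genes had the other sign somewhere. With 3 libraries a group, exons on few reads and shares with a wide spread between libraries limit what could be detected.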

Other observations

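Several genes that follow no list also rose in AbsPro, and they are named here after their values were seen. The posterior homeobox genes Hoxb13 and Hoxd13 were both higher. Hoxb13 was at 188, 255 and 210 normalized counts in Stem and at 2104, 751 and 1775 in AbsPro (log2 fold change 2.82 ± 0.49, adjusted p = 0.000257 in edgeR). Hoxd13 was at 66.6, 10.2 and 30.3 and at 471, 45.5 and 638, so that AbsPro 2 lay below Stem 1 (3.47 ± 0.64, adjusted p = 0.000611 in edgeR). Scd1, the desaturase that makes monounsaturated fatty acids, was even within each group, at 91.0, 60.2 and 95 in Stem and 697, 567 and 689 in AbsPro, 7.93-fold higher on average. Ctse, an aspartic protease gene, was at 62.2 ± 6.41 and 422 ± 6.22, and the AbsPro libraries differed little from each other.

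Gsn and Scin, both actin-severing genes, were called higher too. Gsn, which codes for gelsolin, was at 157 ± 9.04 normalized counts in Stem and 1009 ± 219 in AbsPro, and Scin, its relative, at 513 ± 7.09 and 3222 ± 1268. Hoxb13, Scd1, Ctse, Gsn and Ddx60 were called with each of the 6 libraries left out, Hoxd13, Oas3 and Zbp1 in 3 of these fits and Scin in 1, and DESeq2's Wald test did not call Scin (adjusted p = 0.0244). The interferon-induced genes Ddx60 (log2 fold change 2.5), Oas3 (2.30) and Zbp1 (2.70) lie outside the list given above and were called higher in edgeR, with adjusted p = 0.000124, 0.00249 and 0.000989.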
